A study of Homo sapiens with 9 samples.

Results

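The genes described here encode the numbered members of the ARHGAP and ARHGEF families, which switch small GTPases off and on. Genes were taken where the platform annotation gave a symbol of ARHGAP or ARHGEF followed by digits and an optional letter. Of 19775 genes measured, 54 matched, 31 ARHGAP genes and 23 ARHGEF genes, through 155 probe sets that name only that gene. Each gene was read from its brightest probe set, averaged over all 9 arrays, and 25 of the 54 genes had a mean intensity of at least 50, with 29 below it. In all genes measured, 8838 of 19775 (44.7%) had a mean of at least 50.

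The RNA came from HT1080, a human fibrosarcoma cell line, seeded on top of a gel of fibrillar bovine dermal collagen at 1.7 mg per ml and left for 24 h to adhere in medium with 10% serum. Of 3 groups of 3 arrays, the first was labelled both untreated and vehicle, the second had a protease inhibitor mix for 4 h and the third had the same mix for 24 h. The mix held 100 µM GM6001, an inhibitor of matrix metalloproteinases, 50 µM pepstatin A against aspartic proteases, 250 µM E64 against cysteine proteases, and 2 µM each of aprotinin and leupeptin, which act on serine proteases and, for leupeptin, cysteine proteases too. Some labels call the treatment protease inhibitors and others a kinase inhibitor cocktail, and the compounds listed are protease inhibitors. All groups share the cell line and the collagen, the untreated group has no harvest time in the labels, and a single line was used. The design text calls the replicates biological without saying whether they were separate cultures, so the p-values measure the spread between these arrays. Each array is an Affymetrix expression array with values on a linear intensity scale.

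The small GTPases RHOA, RAC1 and CDC42 are molecular switches that organise actin, contractility and adhesion. Guanine nucleotide exchange factors (GEFs) load them with GTP and so turn them on, GTPase-activating proteins (GAPs) speed GTP hydrolysis and so turn them off, and GDP dissociation inhibitors hold the inactive form in the cytosol. In cells on collagen, RHOA and its kinases drive contraction of the matrix, and RAC1 and CDC42 drive protrusion along fibres.

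The arrays carried the profile of a mesenchymal cell. Of 7 mesenchymal or fibrosarcoma markers measured, 6 had a mean of at least 50 over the 9 arrays, and none of 7 epithelial, 4 leukocyte and 5 endothelial markers did. The summed endothelial markers ran from 32.2 to 47.8 on untreated arrays, from 55.2 to 88.4 at 4 h and from 70.1 to 116.6 at 24 h. PECAM1, at 37.5 over the 9 arrays, had means of 26.5 untreated, 35.0 at 4 h and 51.1 at 24 h. Median intensity ran from 14.2 to 18.2 over the arrays. The ratio of the ACTB 5′ to 3′ control probe sets, a measure of RNA integrity, was 0.893 ± 0.034 (SD, n = 3) untreated, 0.723 ± 0.132 at 4 h and 0.697 ± 0.038 at 24 h, with exact two-sided permutation p of 0.2 and 0.1, and 0.1 is the smallest that 3 against 3 allows. The poly-A spike controls stood at a mean log2(intensity + 16) of 8.75, 9.55 and 9.94, without overlap between treated and untreated arrays. The part of these differences in the results that follow was not tested. In bulk RNA, fewer cells of a type and less RNA per cell cannot be told apart.

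No ARHGAP or ARHGEF gene passed the test in any of the 3 comparisons. Differences between groups are given as log2(intensity + 16), which understates the change of dim genes, and were tested with limma with Benjamini-Hochberg adjustment over all 19775 genes at 0.05. At 4 h against untreated, 0 of 54 members passed, where 0.253% of all genes did. At 24 h against untreated 0 of 54 passed, where 0.47% of all genes did, and at 24 h against 4 h 0 of 54, where 0.142% did. At an unadjusted p under 0.05 in limma, 1 member was higher and 3 lower at 4 h, against 6.91% and 5.43% of all genes. After 24 h, 2 were higher and 2 lower, against 8.15% and 7.65%, and at 24 h against 4 h, 3 were higher and 1 lower, against 5.2% and 6.15%. These shares are near or below the background. The 2 comparisons with untreated share the untreated arrays.

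Among the 25 members with a mean of at least 50, the data bounded the differences of the brightest probe set of each gene. Other probe sets of the same genes, some given below, are not covered by these bounds. The 95% interval of the log2 difference lay within -1 to 1, that is within a 2-fold change on this scale, for 25 of 25 members at 4 h, where 95.7% of all genes of at least 50 did. It did so for 24 of 25 at 24 h (94.5% of all such genes) and for 25 of 25 at 24 h against 4 h (97.6%). The exception at 24 h was ARHGAP17, whose interval ran from -1.01 to 0.07. The intervals reached a median of 0.37 to either side. At an unadjusted p under 0.05, 2 of 25 passed in each comparison, against 17.4% of such genes at 4 h, 24.8% at 24 h and 14.8% at 24 h against 4 h.

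The median log2 difference of the 25 members was -0.09 at 4 h and 0.06 at 24 h, beside -0.01 and 0.01 for all genes of at least 50. At 4 h, 11 members lay above 0 and 14 below, and at 24 h 14 lay above and 11 below. Of the 10 ARHGEF genes of at least 50, 8 were above 0 at 24 h with a median of 0.14, and of the 15 ARHGAP genes, 6 were above 0 with a median of -0.15. The difference between the GEF and GAP genes was not tested.

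**Figure D1:**
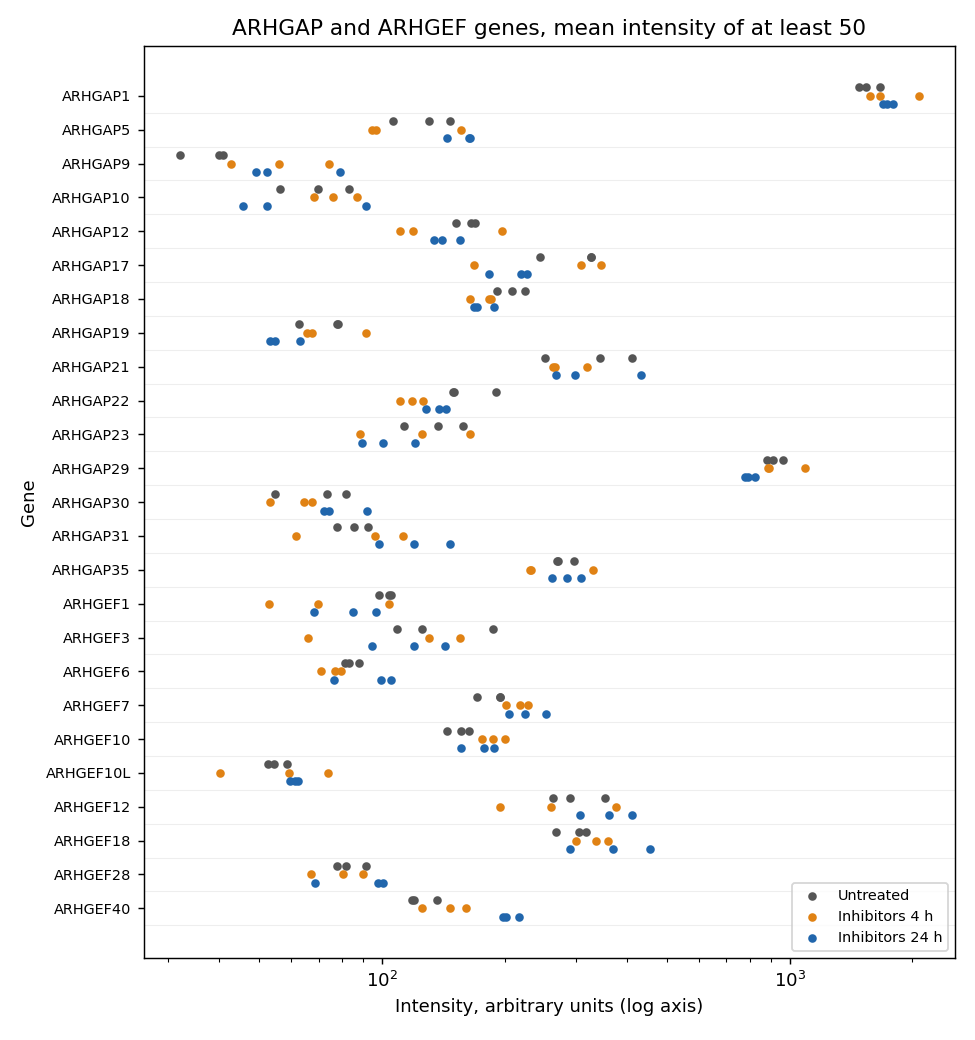
Intensity of the 25 ARHGAP and ARHGEF genes with a mean of at least 50 on each of the 9 arrays (log axis, arbitrary units). Each point is 1 array, grey for untreated, orange for 4 h and blue for 24 h of inhibitors, and ARHGEF40 at 24 h lies above its other arrays.

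**Figure D2:**
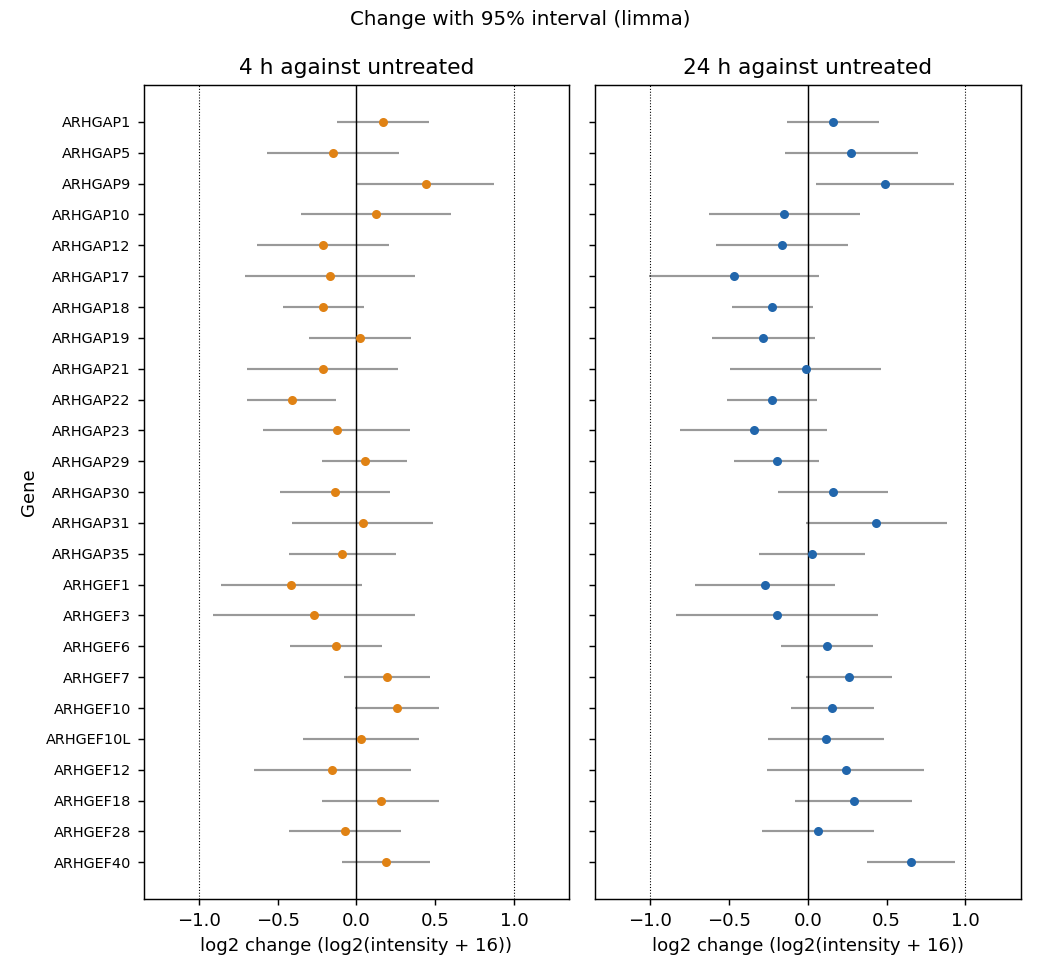
Log2 difference from untreated of the same 25 genes at 4 h (left) and 24 h (right), with 95% intervals from limma; dotted lines mark -1 and 1. All intervals at 4 h and 24 of 25 at 24 h lie between the dotted lines.

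Groups of arrays that did not overlap were about as frequent among the members as among all genes of at least 50, or less so. At 4 h, every treated array was above every untreated array for 3 of 25 members (ARHGEF7, ARHGEF10 and ARHGAP9), where 12.9% of such genes were, and below for 3 (ARHGAP18, ARHGAP22 and ARHGEF6), where 12.8% were. At 24 h it was above for 6 (ARHGAP1, ARHGAP9, ARHGAP31, ARHGEF7, ARHGEF10L and ARHGEF40; 21.3% of all) and below for 5 (ARHGAP17, ARHGAP18, ARHGAP22, ARHGAP29 and ARHGEF1; 20.6% of all). Between 24 h and 4 h, 3 were above (ARHGAP22, ARHGAP30 and ARHGEF40; 11.2% of all) and 2 below (ARHGAP19 and ARHGAP29; 10.5% of all). The split used all 9 arrays, so these counts depend in part on the differences themselves. ARHGAP9 met the split only through its treated arrays. ARHGEF11 (means of 53.2 untreated and 42.4 at 24 h) and ARHGEF39 (51.0 and 35.1) fell below it. Their 24 h arrays were below all untreated ones and are not counted here.

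The member with the smallest p was ARHGEF40, also called Solo, a RHOA exchange factor that binds keratin filaments. Its intensity was 118.4, 119.7 and 136.6 on the untreated arrays, 161.0, 147.4 and 125.7 at 4 h and 217.3, 201.4 and 197.9 at 24 h. The 24 h arrays were above all the others, and the 4 h arrays overlapped the untreated ones. The log2 difference at 24 h was 0.65 (SE 0.12, 95% interval 0.38 to 0.93), with an unadjusted p of 0.000427 and an adjusted p of 0.0541 in limma, just short of the threshold. The estimate was 0.19 at 4 h (adjusted p 0.604) and 0.47 at 24 h against 4 h (adjusted p 0.191). The call at 24 h depended on settings, with an adjusted p of 0.0499 when only the 2 groups were fitted, 0.0059 when only genes of at least 50 were tested, and 0.0502 to 0.194 without 1 of the 9 arrays. ARHGEF40 has 6 probe sets, and the others were below 50, the next of them with a 24 h log2 difference of 0.16 (unadjusted p 0.271 in limma). Of the 6, 2 went the other way at 24 h, the lowest at -0.15. Averaged over its probe sets the difference was 0.18.

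**Figure D3:**
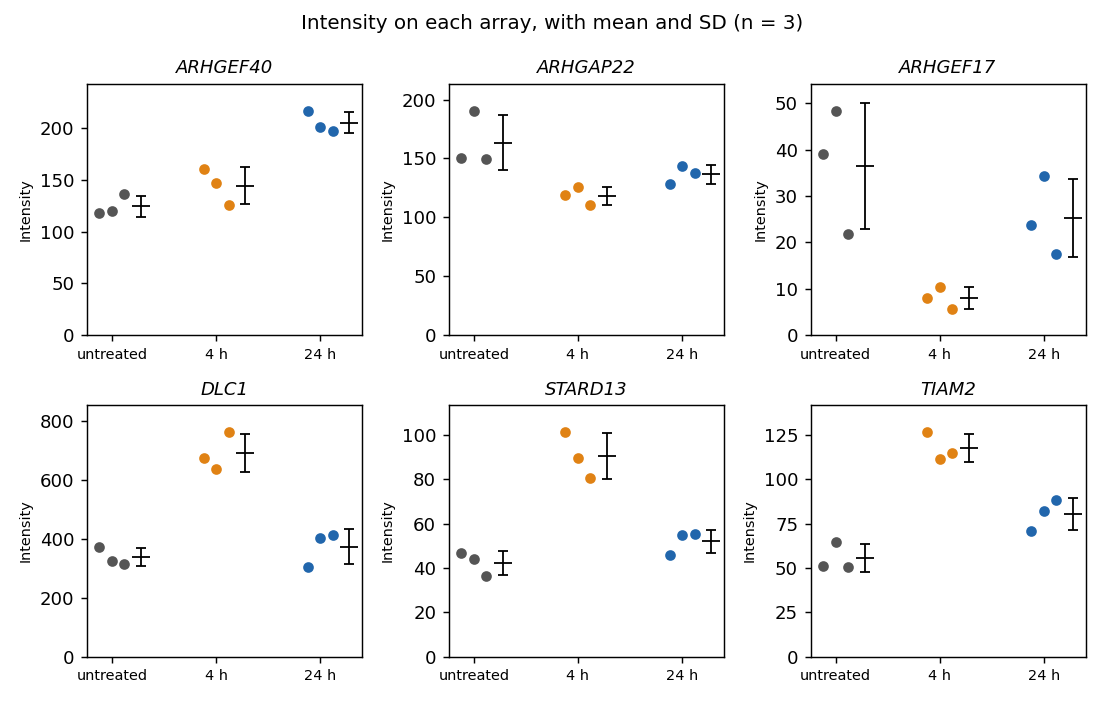
Intensity on each array (points), with the mean and SD of 3 arrays, for 3 members and, in the lower row, 3 genes of other lists. ARHGEF40 is high on the 24 h arrays, ARHGAP22 and ARHGEF17 are low on the 4 h arrays, and DLC1, STARD13 and TIAM2 are high on the 4 h arrays; each axis starts at 0.

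The RefSeq promoter table (GRCh38.p14) held windows for 42 of the 54 members, 86 in all, each the 250 bases before an annotated start; the array files name no genome build. The windows of ARHGEF40, which led the members, and of ARHGAP1, whose probe sets went opposite ways, are shown because each gene has a single annotated window. ARHGEF40 lies at chr14:21070054-21070303 on the plus strand and ARHGAP1 at chr11:46700620-46700869 on the minus strand. Capitals mark a match to the EGR1 motif.
ARHGEF40: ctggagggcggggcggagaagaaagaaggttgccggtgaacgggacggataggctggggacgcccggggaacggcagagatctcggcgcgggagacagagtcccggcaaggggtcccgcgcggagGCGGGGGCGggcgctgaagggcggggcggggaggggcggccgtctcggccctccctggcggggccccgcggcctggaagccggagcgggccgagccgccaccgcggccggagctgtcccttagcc
ARHGAP1: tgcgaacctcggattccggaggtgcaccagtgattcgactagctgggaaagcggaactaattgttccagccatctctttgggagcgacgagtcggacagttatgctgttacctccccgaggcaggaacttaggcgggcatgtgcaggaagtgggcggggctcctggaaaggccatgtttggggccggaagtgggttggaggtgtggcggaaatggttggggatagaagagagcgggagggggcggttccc
The ARHGEF40 window holds 33 CG pairs and 77.2% G and C, and the ARHGAP1 window 15 and 59.6%. On both strands, the EGR1 motif GCGNGGGCG was in 18 of 86 member windows (20.9%), where 8.41% of all 35116 windows hold it. The TEAD motif GGAATG was in 5 (5.81%, where 11.9% of all do), and the AP-1 motif TGANTCA in 0 of 86, where 6.57% of all do. The motifs were fixed with results of these data known. The member windows were also richer in G and C, with a median of 65% and 16 CG pairs beside 58% and 11 over all windows, and the motif counts were not matched for this. A match is a stretch of letters, not a measured site.

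The exchange factors coupled to Gα12 and Gα13 proteins, ARHGEF1, ARHGEF11 and ARHGEF12, carry receptor signals to RHOA. None of the 3 passed the test. ARHGEF1 was at 104.1, 98.4 and 105.6 untreated, 69.9, 104.2 and 52.8 at 4 h and 68.1, 96.6 and 84.9 at 24 h. Its untreated arrays lay close together and above all 24 h arrays, and 1 of the 4 h arrays was within their range. ARHGEF1 differed by a log2 of -0.41 at 4 h (adjusted p 0.444 in limma) and -0.27 at 24 h (0.568). ARHGEF12 ranged from 263 to 352 untreated, from 195 to 376 at 4 h and from 306 to 410 at 24 h, with log2 differences of -0.15 and 0.24, and the groups overlapped. ARHGEF11 had a mean of 49.1, and its log2 differences were -0.10 and -0.24.

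The PIX proteins ARHGEF7 (β-PIX) and ARHGEF6 (α-PIX) activate RAC1 and CDC42 at adhesions, where they bind PAK kinases and GIT proteins. ARHGEF7 was at 171.0, 195.0 and 194.6 untreated, 228.1, 218.7 and 202.0 at 4 h and 204.8, 224.4 and 252.2 at 24 h. All treated arrays were above all untreated ones, by a log2 difference of 0.20 at 4 h (adjusted p 0.573 in limma) and 0.26 at 24 h (0.340). Of its 9 probe sets, 4 went the other way at 4 h, among them the other one of at least 50, and 6 did at 24 h, where the mean over probe sets gave -0.017. ARHGEF6 was 84.2 ± 3.63 (SD, n = 3) untreated, 75.7 ± 4.32 at 4 h and 93.7 ± 15.2 at 24 h, with log2 differences of -0.13 and 0.12.

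Read from their brightest probe sets, other exchange factors varied within similar bounds. ARHGEF18 (p114RhoGEF), which activates RHOA at cell junctions, had log2 differences of 0.15 at 4 h and 0.29 at 24 h. ARHGEF28 (p190RhoGEF), a RHOA exchange factor that binds focal adhesion kinase, had -0.07 and 0.06. Of its 4 probe sets of at least 50, 2 went the other way at 4 h and 2 at 24 h. Over all 6 of its probe sets, the 24 h differences ran from -0.36 to 0.49. ARHGEF10, a RHOA exchange factor, was at 144, 163 and 156 untreated and at 200, 187 and 177 at 4 h, above all untreated arrays, with a log2 difference of 0.26 (95% interval -0.01 to 0.52, adjusted p 0.418 in limma), and 0.16 at 24 h. ARHGEF3 (XPLN), an exchange factor for RHOA and RHOB, was spread widely within groups, from 109 to 187 untreated, from 65.9 to 155 at 4 h and from 94.7 to 143 at 24 h, with log2 differences of -0.27 and -0.20. ARHGEF10L, a relative of ARHGEF10, differed by 0.03 and 0.12. Of the 5 ephexin-like exchange factors ARHGEF5, ARHGEF15, ARHGEF16, ARHGEF19 and ARHGEF26, none had a mean of at least 50.

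Of the GAPs, ARHGAP22 had the smallest p at 4 h among members of at least 50. It belongs with ARHGAP24 and ARHGAP25 to the FilGAP-like group, which turns off RAC1. Its intensity was 150.7, 190.7 and 149.3 untreated, 118.6, 126.0 and 110.8 at 4 h and 128.2, 144.0 and 138.0 at 24 h. The untreated arrays were above all treated arrays, and the 24 h arrays were above the 4 h ones. The 4 h log2 difference was -0.41 (95% interval -0.70 to -0.13, adjusted p 0.235 in limma), and the one at 24 h was -0.23 (adjusted p 0.431). ARHGAP24 and ARHGAP25 were below 50.

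ARHGAP9, a GAP for RAC1 and CDC42 with a mean of 51.8, was near the split. Its means were 37.6 untreated, 57.6 at 4 h and 60.2 at 24 h, so it met the split only through its treated arrays. Its place in the counts of members of at least 50 is therefore not independent of its difference. It was at 40.0, 40.8 and 32.1 untreated, 74.1, 42.7 and 56.1 at 4 h and 52.3, 79.2 and 49.1 at 24 h. The treated arrays were all above the untreated ones, with 1 array at 4 h close to them. They differed by a log2 of 0.44 at 4 h (adjusted p 0.403 in limma) and 0.49 at 24 h (0.261). ARHGAP12, of the same group, was at 166, 152 and 169 untreated and 111, 120 and 197 at 4 h, so its 4 h arrays lay on both sides of the untreated ones. The 2 members just above the split were ARHGEF10L at a mean of 58.0 and ARHGAP9 at 51.8, and the 2 just below were ARHGEF11 at 49.1 and ARHGEF39 at 44.3.

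ARHGAP1 (p50RhoGAP, a GAP for CDC42 and RHOA) gave different pictures from its probe sets. The one with the highest mean was at 1476, 1661 and 1543 untreated, 2071, 1668 and 1571 at 4 h and 1737, 1792 and 1696 at 24 h, with log2 differences of 0.17 (adjusted p 0.653 in limma) and 0.16 (0.615). The other of at least 50 was at 170.9, 174.0 and 202.2 untreated, 135.4, 127.9 and 94.3 at 4 h and 106.9, 96.8 and 105.1 at 24 h. All its treated arrays were below its untreated ones, with log2 differences of -0.56 and -0.74 (unadjusted p 0.00358 and 0.000603, adjusted over all probe sets 0.197 and 0.0763 in limma). What sets these probe sets apart was not tested.

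The p190 proteins ARHGAP5 (p190B) and ARHGAP35 (p190A) are the main GAPs for RHOA at adhesions. ARHGAP5 was at 147.0, 130.8 and 106.4 untreated, 94.8, 96.9 and 156.4 at 4 h and 164.2, 163.9 and 144.7 at 24 h. At 4 h, 2 arrays were below all the others and 1 was within their range. Its log2 differences were -0.15 at 4 h, 0.28 at 24 h and 0.42 at 24 h against 4 h (unadjusted p 0.0486, adjusted p 0.436 in limma). Of its 3 probe sets of at least 50, 2 went the other way at 24 h, the lowest at -0.05. At 24 h against 4 h, all 5 of its probe sets were above 0, from 0.01 to 0.42. ARHGAP35 was 279 ± 14.7 (SD, n = 3) untreated, 264 ± 56.4 at 4 h and 285 ± 23.3 at 24 h, and its log2 difference of 0.03 at 24 h had a 95% interval of -0.31 to 0.37.

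ARHGAP18, a GAP for RHOA, was at 224.6, 209.0 and 191.9 untreated, 183.4, 164.9 and 185.3 at 4 h and 188.1, 171.1 and 168.8 at 24 h. Every treated array was below every untreated one, by log2 differences of -0.21 and -0.22 (adjusted p 0.507 and 0.385 in limma). ARHGAP29, a GAP for RHOA linked to RAP1, was at 962, 908 and 878 untreated, 891, 883 and 1088 at 4 h and 788, 824 and 777 at 24 h. Its 24 h arrays were the lowest of the 9, with a log2 difference of -0.20 (adjusted p 0.474 in limma), while its other probe set of at least 50 was higher by 0.23. ARHGAP17 (RICH1), a GAP for CDC42 and RAC1, was at 244, 326 and 326 untreated, 344, 308 and 168 at 4 h and 184, 227 and 220 at 24 h, a log2 difference of -0.47 at 24 h (adjusted p 0.386).

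ARHGAP31 (CdGAP), which acts on RAC1 and CDC42, was at 92.3, 85.3 and 77.9 untreated, 96.0, 113 and 61.8 at 4 h and 98.4, 120 and 147 at 24 h. The 24 h arrays were above the untreated ones, with a log2 difference of 0.44 (95% interval -0.01 to 0.88, adjusted p 0.331 in limma). The other of its 2 probe sets, below 50, went the other way, at -0.21 at both 4 h and 24 h. ARHGAP21, a GAP for CDC42 and RHOA at the Golgi, and its relative ARHGAP23 had log2 differences of -0.21 and -0.12 at 4 h and -0.01 and -0.34 at 24 h. ARHGAP10 (GRAF2), a GAP with a membrane-binding BAR domain, differed by -0.27 at 24 h against 4 h (adjusted p 0.687 in limma).

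ARHGAP19 and ARHGAP11A are GAPs for RHOA used in cell division. At 24 h against 4 h their log2 differences were -0.31 (adjusted p 0.473 in limma) and -0.38 (unadjusted p 0.0309, adjusted p 0.386). ARHGAP19 was 72.8 ± 8.78 (SD, n = 3) untreated, 74.7 ± 14.5 at 4 h and 57.0 ± 5.2 at 24 h, and ARHGAP11A was below 50 with 26.4 ± 3.67, 32.5 ± 4.5 and 21.5 ± 6.4.

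The 29 members below 50, of which 12 were below 16, spread more. Their log2 differences ran from -1.09 to 0.42 at 4 h and from -0.56 to 0.56 at 24 h. ARHGEF17 (TEM4), a RHOA exchange factor with a single probe set, was at 39.1, 48.4 and 21.7 untreated, 8.1, 10.4 and 5.7 at 4 h and 23.8, 34.2 and 17.5 at 24 h. Its 4 h arrays were below all the others, while the 24 h and untreated arrays overlapped. The log2 difference was -1.09 at 4 h (SE 0.22, unadjusted p 0.000567, adjusted p 0.0869 in limma) and 0.76 at 24 h against 4 h (adjusted p 0.225). With a pseudocount of 1 in place of 16 the 4 h difference was -2.01, and with 64 it was -0.47.

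ARHGAP4 was at 23.1, 23.9 and 16.8 untreated, 7.7, 4.1 and 10.8 at 4 h and 3.5, 7.2 and 19.0 at 24 h. Its log2 difference was -0.67 at 4 h (adjusted p 0.252 in limma) and -0.56 at 24 h (0.237), and 1 array at 24 h was within the untreated range. ARHGEF39 was at 40.9, 58.6 and 53.4 untreated and at 34.3, 36.6 and 34.3 at 24 h, below all untreated arrays (log2 difference -0.38, adjusted p 0.265). Among those higher, ARHGEF16 had 0.42 and ARHGEF26, an exchange factor for RHOG, 0.21 at 4 h, and ARHGEF15 0.56 and ARHGEF33 0.34 at 24 h, with adjusted p of 0.493, 0.565, 0.364 and 0.412 in limma. The members below 16 were ARHGAP4, ARHGAP6, ARHGAP20, ARHGAP25, ARHGAP28, ARHGAP36, ARHGAP45, ARHGEF4, ARHGEF16, ARHGEF19, ARHGEF33 and ARHGEF38. The remaining 17 were ARHGAP11A, ARHGAP24, ARHGAP26, ARHGAP27, ARHGAP32, ARHGAP33, ARHGAP39, ARHGAP42, ARHGAP44, ARHGEF5, ARHGEF11, ARHGEF15, ARHGEF17, ARHGEF25, ARHGEF26, ARHGEF37 and ARHGEF39.

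The choice of probe set mattered for the direction. Of the 25 members of at least 50, 19 had several probe sets, and in 12 of these at 4 h, 13 at 24 h and 15 at 24 h against 4 h at least 1 probe set went against the one with the highest mean. Where several probe sets had a mean of at least 50, which held for 8 members, 4, 5 and 2 went opposite ways. Tested one by one, 0 of 155 member probe sets passed an adjusted p of 0.05 in limma in any comparison, where 0.0389%, 0.11% and 0.0365% of all 41091 probe sets did. At an unadjusted p under 0.05 there were 12, 18 and 13 of 155, where 11.3%, 14.3% and 10.3% of all probe sets passed. Besides ARHGAP1, ARHGEF1 had a second probe set of at least 50 with a log2 difference of 0.44 at 4 h (unadjusted p 0.0599), against -0.41 for its first. The second probe set of ARHGAP29 differed by 0.89 at 4 h (unadjusted p 0.0313, adjusted p 0.384), beside 0.05 for its first.

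**Figure D4:**
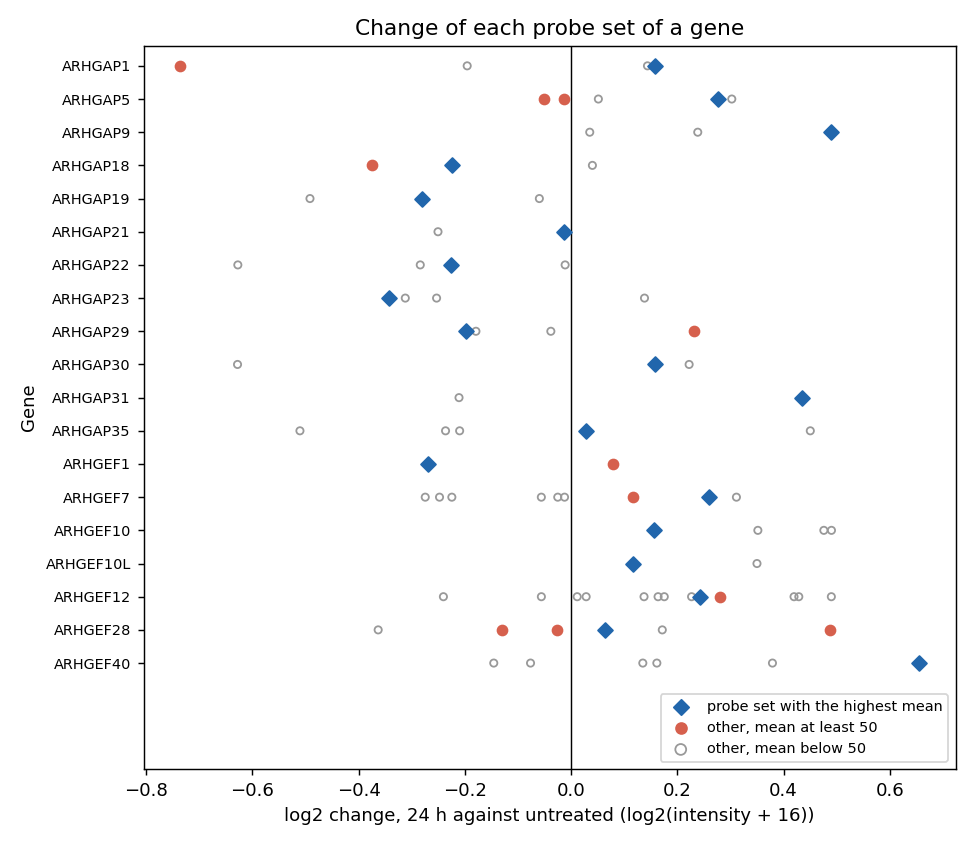
Log2 difference at 24 h from untreated of every probe set of the 19 genes of at least 50 that have several. Diamonds are the probe set with the highest mean, filled circles others of at least 50 and open circles others below 50; ARHGAP1 has its 2 brightest at 0.16 and -0.74.

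Regulators with other names, and the GTPases and effectors around them, were read from the same fit. The 6 lists were chosen with earlier results of these data known. Of 137 genes measured in them, 3 passed the test at 4 h, all higher, where 0.253% of all genes passed. All 3 had a mean of at least 50, and of all 8838 such genes 41 passed higher and 3 lower. At 24 h and at 24 h against 4 h 0 passed, where 0.47% and 0.142% of all genes did. At an unadjusted p under 0.05 in limma there were 18 higher and 8 lower at 4 h, 12 and 13 at 24 h, and 7 and 12 at 24 h against 4 h. In either direction these were 19.0%, 18.2% and 13.9% of the 137, beside 12.3%, 15.8% and 11.4% of all genes, and for the 81 listed genes of at least 50 they were 23.5%, 24.7% and 16%, beside 17.4%, 24.8% and 14.8%. The 3 were among the 22 RhoGAPs with other names (2 genes) and the 42 other Dbl-family exchange factors (1 gene), and 0 of 20 GTPases, 3 GDP dissociation inhibitors, 10 DOCK proteins and 40 effectors passed. The median log2 difference of the 137 at 4 h was 0.02, beside 0.01 for all genes.

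DLC1, a GAP for RHOA at focal adhesions and a known tumour suppressor, rose at 4 h. It was at 373.2, 327.4 and 315.1 untreated, 675.7, 636.9 and 763.0 at 4 h and 305.4, 403.1 and 414.9 at 24 h. The 4 h arrays stood apart from all the others, and the 24 h arrays overlapped the untreated ones. The log2 difference was 1.00 at 4 h (SE 0.15, adjusted p 0.0435 in limma) and 0.13 at 24 h (adjusted p 0.736), and -0.87 at 24 h against 4 h (adjusted p 0.0663). Its second probe set, also of at least 50, differed by 0.79 at 4 h, while 2 of its 5 probe sets, both dim, were lower.

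STARD13, the related GAP also called DLC2, rose at 4 h as well, from 46.6, 43.9 and 36.5 untreated to 101.2, 89.5 and 80.6, and stood at 46.1, 54.8 and 55.5 at 24 h. The log2 difference at 4 h was 0.87 (SE 0.13, adjusted p 0.0435 in limma), and at 24 h it was 0.23 (0.442). TIAM2, an exchange factor for RAC1, rose from 51.4, 64.7 and 50.8 to 126.4, 111.2 and 114.7 at 4 h, and stood at 70.9, 81.9 and 88.4 at 24 h. Its 24 h arrays lay between the other groups without overlap. The log2 difference was 0.90 at 4 h (SE 0.13, adjusted p 0.0418 in limma) and 0.43 at 24 h (0.146).

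These 3 calls were close to the threshold. With any 1 of the 9 arrays left out, TIAM2 and STARD13 no longer passed (adjusted p 0.0503 to 0.168 and 0.0624 to 0.188 in limma), and DLC1 passed only without replicate 1 of the 24 h group (0.0460; 0.0528 to 0.188 for the others). The log2 differences stayed between 0.79 and 1.07 in these fits. Averaged over all probe sets they were 0.35 for TIAM2, 0.29 for DLC1 and 0.59 for STARD13, and none passed (adjusted p 0.518, 0.430 and 0.140 in limma). None of the 3 passed with the compared groups only (0.119, 0.109 and 0.122), with median centring (0.0828 each), with a pseudocount of 1 (0.0888, 0.120 and 0.0994) or with the replicate block (0.126 each). All 3 passed with quantile normalization (adjusted p 0.0465, 0.0433 and 0.0465 in limma, in the same order). They also passed with a pseudocount of 64 (0.0079, 0.0075 and 0.0105) and with only genes of at least 50 tested (0.0024, 0.0027 and 0.0028). STARD13 had means of 42.3 untreated, 90.4 at 4 h and 52.1 at 24 h. It thus met the cut of 50 in part through the 4 h arrays under test, and its filtered value is not separate support.

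In the other lists the genes with the smallest p did not pass. RND3 (RhoE), an atypical GTPase that opposes ROCK1, was 853 ± 34 (SD, n = 3) untreated and 675 ± 64.6 at 4 h, a log2 difference of -0.33 (adjusted p 0.274 in limma). RHOJ, a CDC42-related GTPase, had -0.51 at 24 h (0.128) at a mean of 38.7. All 7 of its probe sets were below 50, and their 24 h differences ran from -0.77 to 0.12, with 2 above 0. ARHGDIB, a GDP dissociation inhibitor, was at 598, 631 and 593 untreated, 530, 398 and 506 at 4 h and 410, 452 and 428 at 24 h, below all untreated arrays at both times, with log2 differences of -0.35 (0.331) and -0.48 (0.120).

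ITSN2, a CDC42 exchange factor of endocytosis, was at 134, 92.8 and 113 untreated and 170, 223 and 259 at 24 h, above all untreated arrays (log2 difference 0.85, adjusted p 0.109 in limma). Its second probe set, also of at least 50, differed by only 0.20 at 24 h (unadjusted p 0.184 in limma). DOCK8, dim at a mean of 10.5, had 0.49 at 4 h (adjusted p 0.201), and DOCK11 had 0.44 at 24 h (adjusted p 0.196), both being CDC42 exchange factors. Dim probe sets went the other way, 2 of 4 for DOCK8 at 4 h and 1 of 2 for DOCK11 at 24 h (-0.39). DEPDC1, a protein of mitotic cells with a RhoGAP domain, was 388 ± 50.0 (SD, n = 3) untreated and 246 ± 20.4 at 24 h (log2 difference -0.62, adjusted p 0.165). All 4 of its probe sets had a mean of at least 50, and their 24 h differences ran from -0.62 to -0.08. The RHOA effector RHPN2 was at 121, 118 and 137 untreated and 235, 165 and 228 at 4 h (0.66, adjusted p 0.124). The CDC42 effector CDC42EP1 was at 193, 213 and 203 untreated and 77.7, 88.0 and 89.9 at 24 h, well apart, with a log2 difference of -1.12 (adjusted p 0.101); on the 4 h arrays it ranged from 94.3 to 253.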

How the data were processed

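RNA of 9 HT1080 samples was measured on Affymetrix arrays. Per the submitters' processing notes, R 2.9.2 and RMA were used, but the deposited intensity values are linear, with a mean trimmed by 2% at each end of 100 on every array, and the step that made them is not stated in the labels. Of 54675 probe sets, 62 controls were left out, 41091 named 1 gene, 1801 several and 11721 were not listed; names with several genes were not used, which left out 8 probe sets of ARHGAP or ARHGEF genes, and ARHGAP8, ARHGAP11B, ARHGAP15 and ARHGEF34P were on such probe sets alone. Symbols came from the platform annotation, and 41037 of the 41091 probe sets matched RefSeq by Entrez identifier. Values were taken as log2(intensity + 16), and the brightest probe set of each gene was fitted with limma 3.58.1 in R 4.3.3 (lmFit, eBayes) over 9 arrays in 3 groups, with Benjamini-Hochberg adjustment over 19775 genes. The fit was tested on simulated data for 24 h against untreated (19775 genes, 200 of them changed). It recovered 20% of changes of 0.5, 78% of 1 and 100% of 2 on the log2 scale, with 5 false calls. These sizes were given to 50, 50 and 100 genes, all drawn from genes with a mean log2 value above that of an intensity of 50. Recovery of changes in dimmer genes, or with fewer large changes, was not tested. Array controls were compared by exact permutation tests. Precision is limited by the number of arrays.

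The members and lists were chosen with earlier results of these data known. Named genes were the 6 members of at least 50 with the smallest p in each direction at 4 h and at 24 h, 3 in each direction at 24 h against 4 h, 12 regulators of known roles, of which 11 were measured (the other was not analysed here), the 3 brightest of each family, the 2 on each side of 50, the 2 dimmer members in each direction with the smallest p, and the leading gene of each other list; 31 members were named by this rule. ARHGAP11A, ARHGAP30 and ARHGEF3, and members named in counts or groups only, were added after their values were seen. Alternatives were another pseudocount, scaling, probe set rule, filter, fitted groups, the replicate block and leaving out each array.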

Additional observations from a re-analysis of the deposited data

Results flagged for a closer look

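ARHGAP30 had 4 h arrays below the untreated mean (64.4, 67.3 and 53.3, against 69.9) and 24 h arrays above it (72.0, 92.0 and 74.3), so that the arrays of the 2 times lay on opposite sides of it. The difference between 24 h and 4 h was 0.30 on the log2 scale, with an unadjusted p of 0.0886 and an adjusted p of 0.522 in limma, so it did not pass. The untreated arrays, at 54.6, 81.8 and 73.4, overlapped both. The differences from untreated, -0.14 and 0.16, rest on the same untreated arrays. All these values are from the brightest of 3 probe sets of ARHGAP30, the only 1 of at least 50. Of the 3, 2 went the other way at 24 h against 4 h, the lowest at -0.38. At 24 h against untreated 1 did, at -0.63.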

How the results depend on the processing

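With 3 arrays a group, 1 line and a treatment of several inhibitors, small differences could not be resolved. The count of all genes that passed in limma moved with the processing. For 4 h against untreated (50 genes) it was 2 with the compared groups only, 16 with every probe set tested, 26 with the mean over probe sets, 17 with median centring, 398 with only genes of at least 50, 6 with a pseudocount of 1, 273 with 64 and 2 to 16 without 1 array. For 24 h against untreated (93) it was 202, 45, 49, 69, 1142, 1, 833 and 0 to 256 in that order, and for 24 h against 4 h (28) it was 1, 15, 28, 15, 306, 9, 244 and 6 to 18. Quantile normalization gave 118 at 24 h and 32 at 24 h against 4 h. With the replicate block the counts were 3, 1 and 3. Arrays of the same number correlated between -0.045 and 0.057 in their deviations from group means. For arrays of different numbers the range was -0.049 to 0.080. With 3 arrays a group, these correlations cannot settle whether the numbers pair the arrays. The number of members that passed was 0, and 1 (ARHGEF40) at 24 h against untreated with the compared groups only, with only genes of at least 50 or with a pseudocount of 64, and 1 (ARHGEF40) at 24 h against 4 h with only genes of at least 50; it was 0 in every fit without 1 array and with the replicate block. Of 857 values for 51 named gene and comparison pairs, 4 changed sign, all with the mean over probe sets: ARHGAP1 to -0.13, ARHGEF40 to -0.0013 and ARHGEF1 to 0.017 at 4 h, and ARHGEF7 to -0.017 at 24 h. Filtering out dim genes leaves fewer genes to adjust over, and it also changes the spread that limma shares between genes. The cause of these shifts, with the filter or without it, was not tested.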
